A study of Saccharomyces cerevisiae with 12 samples.

Results

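Tup1 and Cyc8 form the general corepressor of budding yeast, and the genes described here are *CYC8* and 9 genes for DNA-binding repressors that are known to bring the complex to promoters. They were chosen by ORF name and known function, by a rule that uses no measured value but was drawn up with earlier results of these data known, and make up 10 of the 5769 genes that had a value on every array. The glucose repressors are *MIG1* (YGL035C), *MIG2* (YGL209W), *NRG1* (YDR043C) and *NRG2* (YBR066C), and the stress factors are *SKO1* (YNL167C) and *CIN5* (YOR028C). The other members are *CYC8* itself (YBR112C), *RFX1* (YLR176C), *SUT1* (YGL162W) and *PHD1* (YKL043W).

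Neither Tup1 nor Cyc8 binds specific DNA sequences. Cyc8, also called Ssn6, joins Tup1 to repressors that do, and Tup1 then holds the promoter silent through contacts with histone tails, histone deacetylases and the Mediator complex. Because each repressor serves its own set of genes, the same corepressor acts on sugar metabolism, the DNA damage response, osmotic stress, hypoxia and filamentous growth.

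Expression was profiled on 12 one-color NimbleGen arrays, with 2 arrays of *tup1Δ* in rapamycin, 2 of *tup1Δ* in DMSO, 4 of WT in rapamycin and 4 of WT in DMSO. The *tup1Δ* cells came from the yeast deletion collection as a single strain, and WT was BY4741. That background is *MATa his3Δ1 leu2Δ0 met15Δ0 ura3Δ0*, so cells of all 4 groups carry these alleles. Cells in mid-log phase in YPD, a rich glucose medium, were given 100 nM rapamycin, which inhibits the TOR kinases, or the solvent DMSO at 0.1%, for 30 min at 30°C. The design text states that 4 WT cultures were each divided between the treatments and that 2 cultures were grown for the mutant. The authors deposited 1 log2 value per gene and array after Robust Multi-array Average (RMA) normalization, which gives arrays nearly the same distribution, so a shift of all genes together would not be seen. All fold changes below are differences of these log2 values, and levels were compared within a gene only.

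The strain labels were checked first. *TUP1* (YCR084C) had log2 values of 7.95 to 8.23 on the *tup1Δ* rapamycin arrays and 7.95 to 8.0 on the *tup1Δ* DMSO arrays, against 13.66 to 13.93 on the WT rapamycin arrays and 13.85 to 14.04 on the WT DMSO arrays. On all arrays the 3 deleted markers *LEU2*, *URA3* and *MET17* (the *MET15* locus) lay at 7.85 to 8.06 and the alpha-cell genes *STE3* and *MF(ALPHA)1* at 7.98 to 8.21, while 4 **a**-cell genes lay at 9.75 to 14.27. *HIS3*, of which *his3Δ1* removes only a part, lay at 12.88 to 13.66 on all arrays. The WT arrays fell into pairs, with replicates 3 and 4 alike in both treatments and replicates 1 and 2 alike in DMSO but much less clearly in rapamycin. In DMSO the SD of the difference across genes was 0.110 within the first pair, 0.0647 within the second and 0.258 to 0.287 between pairs. In rapamycin it was 0.214, 0.0643 and 0.243 to 0.268. The labels name no batch for these pairs, so for members with clear differences between them the main values are also given below for each pair on its own.

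**Figure D1:**
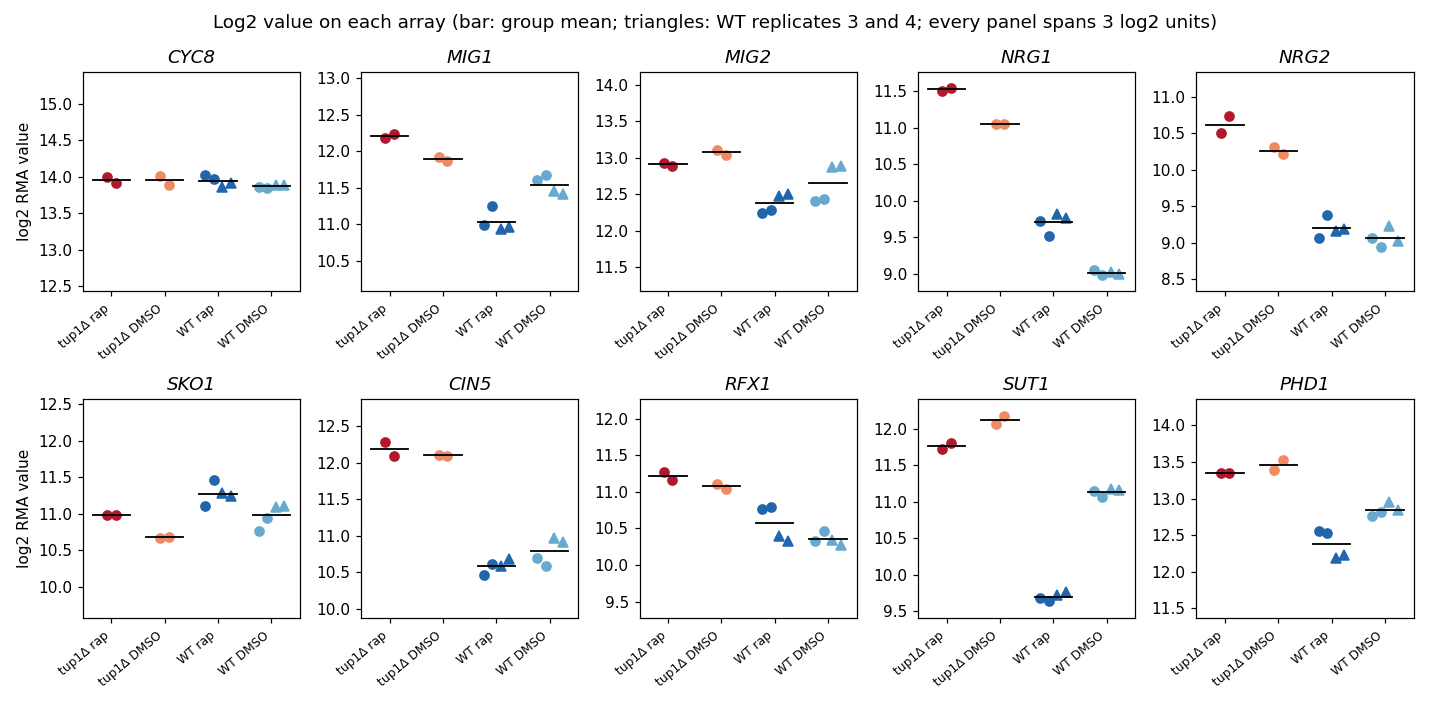
Log2 RMA value (vertical axis) of each of the 10 genes on every array, by group from left to right *tup1Δ* rapamycin, *tup1Δ* DMSO, WT rapamycin and WT DMSO, with bars at the group means and triangles for WT replicates 3 and 4. *MIG1*, *NRG1*, *NRG2*, *CIN5*, *RFX1*, *SUT1* and *PHD1* lie higher on all 4 *tup1Δ* arrays than on all 8 WT arrays, and *CYC8* stays between 13.84 and 14.03 on all 12. The share of all genes separated in this way is not given here, so the separation only describes the plot.

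In DMSO, 8 of the 10 genes were higher in *tup1Δ* than in WT at an adjusted p under 0.05 in limma, where 15.3% of all genes were, and 1 gene, *SKO1*, was lower, where 27.3% of all genes were. At a change of at least 2-fold, *NRG1*, *NRG2* and *CIN5* were higher, 3 of the 10, beside 4.13% of all genes. The median log2 fold change was 0.67 over the 10 genes and -0.08 over all genes. In rapamycin, 8 of the 10 were again higher in *tup1Δ*, with a background of 16.2%, and *SKO1* was again lower, with a background of 27.5%. At 2-fold, 5 of the 10 were higher, namely *MIG1*, *NRG1*, *NRG2*, *SUT1* and *CIN5*, beside 4.52% of all genes, and the medians were 1.07 and -0.09. The strain comparisons in rapamycin and in DMSO use different arrays but the same WT cultures. *CYC8* was the only member that passed in neither. Cultures were measured in bulk, so more cells with a transcript and more of it per cell cannot be told apart.

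**Figure D2:**
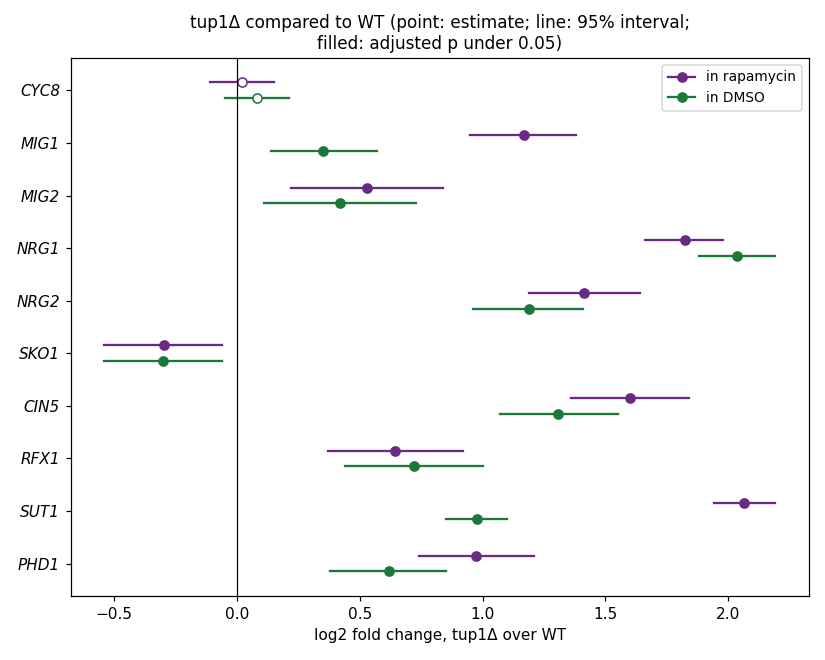
Log2 fold change of *tup1Δ* over WT (horizontal axis, with its 95% interval) for each gene in rapamycin (upper) and in DMSO (lower), with filled points at an adjusted p under 0.05. *NRG1* had the highest point in DMSO at 2.03 and *SUT1* the highest in rapamycin at 2.06, *SKO1* lies below 0 in both, and *CYC8* lies near 0 in both.

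*CYC8*, the partner of Tup1 within the complex, had log2 values of 14.00 and 13.92 in *tup1Δ* rapamycin, 14.01 and 13.89 in *tup1Δ* DMSO, 14.03, 13.97, 13.86 and 13.91 in WT rapamycin, and 13.86, 13.84, 13.89 and 13.89 in WT DMSO. Its signal was bright, since 94.3% of genes had a lower mean in WT DMSO. Neighbouring groups overlapped throughout the order of levels, and in DMSO the lowest *tup1Δ* array and the highest WT array both stood at 13.89. The log2 fold change between *tup1Δ* and WT was 0.02 in rapamycin (95% interval -0.11 to 0.15, adjusted p = 0.797, limma) and 0.08 in DMSO (-0.05 to 0.21, adjusted p = 0.307). A difference of more than 0.21 on the log2 scale in either direction lay outside both intervals.

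Mig1 is a zinc finger protein that represses genes for the use of other sugars while glucose is present, and it leaves the nucleus once the kinase Snf1 phosphorylates it. *MIG1* had log2 values of 12.18 and 12.23 in *tup1Δ* rapamycin, 11.92 and 11.86 in *tup1Δ* DMSO, 10.99, 11.25, 10.94 and 10.96 in WT rapamycin, and 11.61, 11.68, 11.45 and 11.42 in WT DMSO. No group overlapped another, and the treated arrays were the highest of all in *tup1Δ* and the lowest of all in WT. The difference between *tup1Δ* and WT was 1.17 in rapamycin (SE 0.10, 2.25-fold, adjusted p = 3.13e-06) and 0.35 in DMSO (SE 0.10, 1.28-fold, adjusted p = 0.0136). In DMSO it was 0.25 against WT replicates 1 and 2 and 0.46 against replicates 3 and 4. The DMSO call was lost without *tup1Δ* DMSO replicate 1 (adjusted p = 0.104) or replicate 2 (adjusted p = 0.0576).

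Mig2 is a zinc finger protein that acts beside Mig1 in glucose repression, and its gene showed the clearest split of the WT pairs in DMSO among the members. *MIG2* had log2 values of 12.93 and 12.89 in *tup1Δ* rapamycin, 13.11 and 13.04 in *tup1Δ* DMSO, 12.24, 12.29, 12.47 and 12.51 in WT rapamycin, and 12.41, 12.44, 12.87 and 12.89 in WT DMSO. Within each treatment the *tup1Δ* arrays lay above the WT arrays, but *tup1Δ* rapamycin overlapped WT DMSO. The difference between the strains in DMSO was 0.42 (95% interval 0.11 to 0.73, adjusted p = 0.0337). It was 0.65 against WT replicates 1 and 2 alone (adjusted p = 8.11e-05) and 0.19 against replicates 3 and 4 alone (adjusted p = 0.00494). These p-values leave out the spread between the WT pairs, and 17% and 25.3% of all genes were higher in *tup1Δ* in these settings. With each WT pair averaged to 1 value, the adjusted p in DMSO was 0.0694. The DMSO difference lost its call in 6 of the 22 other settings, including without either *tup1Δ* DMSO array (adjusted p = 0.176 and 0.107) and without WT DMSO replicate 1 (0.0653) or 2 (0.071). In rapamycin the difference was 0.53 (0.22 to 0.84, adjusted p = 0.0118). It was 0.64 against WT replicates 1 and 2 and 0.42 against replicates 3 and 4. The rapamycin call was lost without *tup1Δ* rapamycin replicate 1 (0.0855) or 2 (0.0557).

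Nrg1 and Nrg2 are related zinc finger repressors of glucose-repressed genes and of invasive growth. *NRG1* had log2 values of 11.51 and 11.54 in *tup1Δ* rapamycin, 11.05 and 11.05 in *tup1Δ* DMSO, 9.72, 9.52, 9.82 and 9.76 in WT rapamycin, and 9.05, 8.99, 9.02 and 9.0 in WT DMSO. These 4 groups were fully separate, and the lowest *tup1Δ* array was 1.23 log2 units above the highest WT array. In DMSO the strains differed by 2.03 (SE 0.07, 4.10-fold, adjusted p = 2.62e-09), the highest change among the members and place 65 from the top of all 5769 genes. With each WT pair averaged to 1 value, that adjusted p was 3.38e-06. In rapamycin the difference was 1.82 (SE 0.07, 3.54-fold, adjusted p = 5.12e-09).

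*NRG2* had log2 values of 10.50 and 10.73 in *tup1Δ* rapamycin, 10.31 and 10.21 in *tup1Δ* DMSO, 9.06, 9.38, 9.16 and 9.19 in WT rapamycin, and 9.07, 8.95, 9.23 and 9.03 in WT DMSO. The *tup1Δ* arrays lay above all WT arrays, while the WT groups overlapped each other. The strain difference was 1.41 in rapamycin (2.66-fold, adjusted p = 9.17e-07) and 1.19 in DMSO (2.28-fold, adjusted p = 4.86e-06). Both genes were dim in WT DMSO, where only 11.3% of genes lay below *NRG1* and 12.0% below *NRG2*, and RMA values near the bottom of the range can understate a fold change. Cross-hybridization between the related members was not tested, since the probe sequences were not used here.

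Sko1, a bZIP protein of the ATF and CREB family, represses osmotic stress genes until the kinase Hog1 phosphorylates it. *SKO1* had log2 values of 10.98 and 10.98 in *tup1Δ* rapamycin, 10.67 and 10.69 in *tup1Δ* DMSO, 11.11, 11.47, 11.28 and 11.24 in WT rapamycin, and 10.76, 10.95, 11.10 and 11.11 in WT DMSO. It was the only member with lower levels in *tup1Δ*, and within each treatment the strains did not overlap. The difference was -0.30 in rapamycin (95% interval -0.54 to -0.06, adjusted p = 0.0474) and -0.30 in DMSO (-0.54 to -0.06, adjusted p = 0.0460). The direction held in all 22 other settings, but many of these cannot change the estimate, such as those without an array of the other treatment. The call was lost in 13 of the 22 in rapamycin. In DMSO it was lost in 14 (adjusted p up to 0.247), among them the comparison with WT replicates 1 and 2 alone. There the difference was -0.17 (adjusted p = 0.247), while it was -0.43 against replicates 3 and 4 alone (adjusted p = 1.45e-05). Of all genes, 31.8% were lower in *tup1Δ* in the former setting and 42.2% in the latter. The p-values against a single pair leave out the spread between the WT pairs.

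Cin5, also called Yap4, is a bZIP protein of the Yap family linked to salt tolerance. *CIN5* had log2 values of 12.28 and 12.09 in *tup1Δ* rapamycin, 12.11 and 12.09 in *tup1Δ* DMSO, 10.46, 10.62, 10.59 and 10.68 in WT rapamycin, and 10.70, 10.58, 10.97 and 10.91 in WT DMSO. The treatments overlapped within each strain, and the strains were far apart in both treatments. The strain difference was 1.60 in rapamycin (SE 0.11, 3.03-fold, adjusted p = 5.29e-07) and 1.31 in DMSO (SE 0.11, 2.48-fold, adjusted p = 3.41e-06). In DMSO it was 1.46 against WT replicates 1 and 2 and 1.16 against replicates 3 and 4.

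Rfx1, also called Crt1, represses the genes induced by DNA damage, including its own gene. *RFX1* had log2 values of 11.27 and 11.16 in *tup1Δ* rapamycin, 11.11 and 11.04 in *tup1Δ* DMSO, 10.77, 10.79, 10.40 and 10.33 in WT rapamycin, and 10.33, 10.47, 10.34 and 10.27 in WT DMSO. All *tup1Δ* arrays were above all WT arrays, and WT rapamycin replicates 1 and 2 stood above replicates 3 and 4. The strain difference was 0.64 in rapamycin (1.56-fold, adjusted p = 0.00204), with 0.44 against WT replicates 1 and 2 and 0.85 against replicates 3 and 4. In DMSO it was 0.72 (1.65-fold, adjusted p = 9.54e-04).

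Sut1 is a zinc cluster protein of sterol uptake and of the response to low oxygen. *SUT1* had log2 values of 11.72 and 11.80 in *tup1Δ* rapamycin, 12.06 and 12.17 in *tup1Δ* DMSO, 9.68, 9.64, 9.72 and 9.76 in WT rapamycin, and 11.15, 11.06, 11.17 and 11.16 in WT DMSO. The 4 groups were separate, and the treated arrays lay below the untreated ones in each strain. The strain difference was 2.06 in rapamycin (SE 0.06, 4.18-fold, adjusted p = 2.83e-10) and 0.98 in DMSO (SE 0.06, 1.97-fold, adjusted p = 1.8e-07), just under the 2-fold threshold.

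Phd1 is a factor of pseudohyphal growth, the change to chains of long cells. *PHD1* had log2 values of 13.35 and 13.35 in *tup1Δ* rapamycin, 13.39 and 13.53 in *tup1Δ* DMSO, 12.55, 12.53, 12.19 and 12.23 in WT rapamycin, and 12.76, 12.82, 12.95 and 12.84 in WT DMSO. No groups overlapped. The strains differed by 0.97 in rapamycin (1.97-fold, adjusted p = 3.16e-05), with 0.81 against WT replicates 1 and 2 and 1.14 against replicates 3 and 4, and by 0.62 in DMSO (1.53-fold, adjusted p = 9.02e-04).

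For these strain comparisons an exact two-sided permutation test of 2 arrays against 4 cannot go below p = 0.0667. In rapamycin that smallest value was reached by all members except *SKO1*, with an exact permutation p of 0.133, and *CYC8*, with 0.733. In DMSO it was reached by all except *MIG2* and *SKO1*, with an exact permutation p of 0.133 each, and thus also by *CYC8*, whose difference of 0.08 did not pass in limma. The share of all genes that reach the smallest value is not given here, so the permutation results describe single members only.

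The response to rapamycin was compared next. In WT, 2 of the 10 genes were higher after rapamycin at an adjusted p under 0.05, beside 37.8% of all genes, and 3 were lower, beside 28.4%. *NRG1* rose by 0.69 (SE 0.06, 1.61-fold, adjusted p = 1.28e-06) and *SKO1* by 0.30 (SE 0.09, 1.23-fold, adjusted p = 0.0118). *SUT1* fell by 1.43 (SE 0.05, 0.370 of the DMSO level, adjusted p = 5.14e-10) and was the only member past 2-fold, 1 of the 10, beside 7.8% of all genes. *MIG1* fell by 0.50 (adjusted p = 1.88e-04) and *PHD1* by 0.47 (adjusted p = 5.88e-04). In this fit, which leaves out the division of cultures, the share of members that rose was below its background. The share that fell was close to its own.

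Because each WT culture was divided between the treatments, the comparison was also made with culture as a replicate block. Then 8 of the 10 passed, 3 higher (background 42.2%) and 5 lower (31.2%). With the block the share that fell was thus above its background and the share that rose still below. These shares of 10 genes were not tested. The 3 added members were *MIG2* (-0.27, adjusted p = 0.0559 without the block and 0.00275 with it), *CIN5* (-0.20, 0.0604 and 0.0307) and *RFX1* (0.22, 0.0819 and 0.0234). The WT pairs differed in size for all of them. *MIG2* differed by -0.16 in replicates 1 and 2 and by -0.39 in replicates 3 and 4, *CIN5* by -0.10 and -0.31, and *RFX1* by 0.38 and 0.06. *PHD1*, which passed either way, fell by 0.25 in the first pair and by 0.69 in the second, and *SKO1*, which also passed either way, rose by 0.44 and 0.16.

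*SUT1* was the most even across cultures, with rapamycin minus DMSO between -1.47 and -1.41 in the 4 WT cultures. *MIG1* was lower after rapamycin by 0.61, 0.42, 0.51 and 0.45, and *NRG1* higher by 0.53 to 0.80. Together with *MIG2*, *SKO1*, *RFX1* and *PHD1*, these genes moved in the same direction in 4 of 4 cultures, for which an exact sign-flip permutation test cannot go below p = 0.125. The share of all genes that kept 1 direction in 4 of 4 cultures is not given here, so this describes single members only. *CYC8* was higher in 3 of 4 cultures by at most 0.17 (estimate 0.07, 95% interval -0.04 to 0.18, adjusted p = 0.215), and *NRG2* was higher in 2 of 4 (0.13, -0.05 to 0.31, adjusted p = 0.194).

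**Figure D3:**
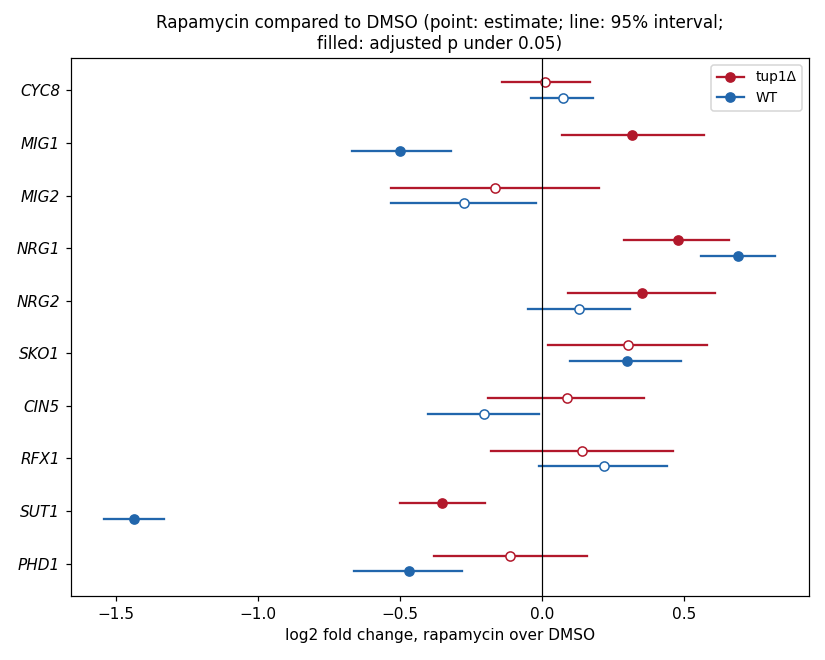
Log2 fold change of rapamycin over DMSO (horizontal axis, with its 95% interval) for each gene in *tup1Δ* (upper) and WT (lower), with filled points at an adjusted p under 0.05. *MIG1* lies at 0.32 in *tup1Δ* and -0.50 in WT, and *SUT1* at -0.35 in *tup1Δ* and -1.43 in WT.

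In *tup1Δ*, 3 of the 10 were higher after rapamycin (background 29.6%) and 1 was lower (background 23.5%), with 0 past 2-fold, so the first share was close to that of all genes and the second below it. *NRG1* rose by 0.48 (SE 0.08, 1.39-fold, adjusted p = 5.89e-04), *NRG2* by 0.35 (SE 0.12, adjusted p = 0.0256) and *MIG1* by 0.32 (SE 0.11, adjusted p = 0.0334). *SUT1* fell by 0.35 (SE 0.07, 0.784 of the DMSO level, adjusted p = 0.00103). The *MIG1* call was lost without any 1 of the 4 *tup1Δ* arrays (adjusted p between 0.0758 and 0.141), and that of *NRG2* without *tup1Δ* DMSO replicate 1 (0.0551) or 2 (0.133) or rapamycin replicate 2 (0.199). *SKO1* had an estimate of 0.30 (0.02 to 0.58, adjusted p = 0.0648), close to that in WT. The other members had estimates between -0.17 and 0.14. With 2 arrays against 2, an exact permutation test cannot go below p = 0.333.

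Whether the strains responded differently to rapamycin was then tested itself, as an interaction. Of the 10 genes, 2 responded differently, both with a higher change in *tup1Δ*, beside 3.48% of all genes. Another 2.29% of all genes and 0 of the 10 had a lower change in *tup1Δ*. *SUT1* alone, 1 of the 10, also had a difference of 2-fold or more in the higher direction, beside 0.78% of all genes. For *SUT1* the difference was 1.08 (95% interval 0.90 to 1.26, adjusted p = 1.63e-05), place 37 from the top of all genes. It fell in both strains, by 0.35 in *tup1Δ* and by 1.43 in WT. For *MIG1* the difference was 0.82 (0.51 to 1.12, adjusted p = 0.00471), place 73 from the top, with estimates of opposite sign, 0.32 in *tup1Δ* and -0.50 in WT. *MIG1* was lower in each WT culture, and both *tup1Δ* rapamycin arrays lay above both *tup1Δ* DMSO arrays. Both kept an adjusted p under 0.05 in all 22 alternatives that refit the data, with values from 2.1e-05 to 0.0338 for *MIG1* and from 5.88e-06 to 0.00413 for *SUT1*.

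**Figure D4:**
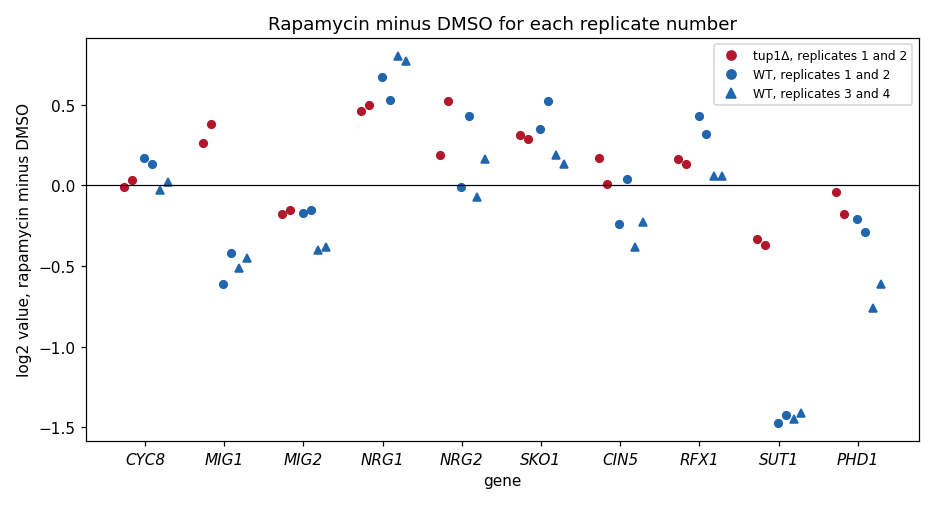
Rapamycin minus DMSO (vertical axis, log2) for each replicate number in *tup1Δ* (red) and WT (blue, with triangles for replicates 3 and 4), by gene. Same-numbered *tup1Δ* arrays are not known to share a culture. Both *tup1Δ* points of *MIG1* lie above 0 and its 4 WT points below, and for *SUT1* the 4 WT points lie between -1.47 and -1.41.

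For the other 8 members the interaction did not pass, and its intervals bound what could be missed. They ran from -0.25 to 0.13 for *CYC8*, -0.33 to 0.55 for *MIG2*, -0.44 to 0.01 for *NRG1*, -0.09 to 0.54 for *NRG2* and -0.34 to 0.34 for *SKO1*. For *RFX1* the interval was -0.47 to 0.32, for *CIN5* -0.04 to 0.63 and for *PHD1* 0.03 to 0.69. Against WT replicates 3 and 4 alone, 6 members passed, 5 with a higher and 1 with a lower change in *tup1Δ*, with *MIG2* (adjusted p = 0.029), *NRG1* (0.00533), *CIN5* (0.00895) and *PHD1* (6.31e-04) added. In that setting 15.1% of all genes had a higher and 16.6% a lower change in *tup1Δ*.

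The members were set beside other parts of the pathway. The corepressor's known contacts are histone deacetylases, Mediator subunits, the remodeler Isw2 and histones H3 and H4. Of 16 measured genes for these, 0 were higher in *tup1Δ* in DMSO (15.3% of all genes) and 3 were lower (27.3% of all genes), with a median of -0.13. In rapamycin 0 were higher (16.2%) and 6 lower (27.5%). *HOS1*, for a histone deacetylase, had -0.65 in DMSO (adjusted p = 6.63e-05), *HHT1*, for histone H3 and with a near-identical copy in *HHT2*, -0.47 (adjusted p = 4.48e-04) and *ISW2* -0.44 (adjusted p = 9.82e-04). Of 15 genes for kinases and phosphatases that act on the repressors, among them *SNF1*, *HOG1* and *RAD53*, 3 were higher and 3 lower in *tup1Δ* in DMSO, and 1 was higher and 0 lower in rapamycin, beside the same shares of all genes. After rapamycin in WT 7 of the 15 were higher, beside 37.8% of all genes, and 4 lower, beside 28.4%.

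Of the 4 paralogs of the members, 3 were higher in *tup1Δ* in each treatment, beside 16.2% of all genes in rapamycin and 15.3% in DMSO. *YAP6*, the paralog of *CIN5*, was higher in *tup1Δ* by 1.31 in rapamycin (adjusted p = 1.2e-07) and by 1.72 in DMSO (adjusted p = 1.3e-08). *SUT2*, the paralog of *SUT1*, was higher by 0.95 and 0.56, and *SOK2*, the paralog of *PHD1*, by 0.25 and 0.33. *MIG3*, related to *MIG1* and *MIG2*, did not pass, with 0.18 in rapamycin and -0.23 in DMSO. As for *SUT1*, the level of *SUT2* was lower after rapamycin in both strains, with a fall after rapamycin by 0.53 in *tup1Δ* and by 0.91 in WT, and an interaction of 0.38 (adjusted p = 0.0355). The interaction of *YAP6* was in the other direction, at -0.41 (adjusted p = 0.0464), and those of *SOK2* and *MIG3* did not pass. Of 10 other repressors that work with Tup1-Cyc8, 4 of which are these paralogs, 5 were higher in *tup1Δ* in DMSO (15.3% of all genes) and 1 was lower (27.3%), with a median of 0.25. Outside the paralogs, *XBP1*, a stress-induced repressor of cyclin genes, was higher by 1.55 in rapamycin (adjusted p = 2.04e-07) and by 1.5 in DMSO (adjusted p = 3e-07). In this list 5 genes were higher (16.2% of all genes) and 0 lower (27.5%) in rapamycin.

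Known target genes of the DNA-binding members were counted in the same way, and whether a member represses or activates them was not considered. Their counts stand beside 16.2% of all genes higher in *tup1Δ* in rapamycin and 15.3% in DMSO, or 4.52% and 4.13% past 2-fold. Of 10 targets of Mig1 and Mig2, 8 were higher in *tup1Δ* in DMSO, 5 of them by 2-fold, and 8 in rapamycin, 7 of them by 2-fold. The median was 1.04 in rapamycin and 1.19 in DMSO. The largest differences in DMSO were those of the maltase gene *MAL12*, with 4.26, the glucose transporter gene *HXT4*, with 2.63, and the hexokinase gene *HXK1*, with 2.25. *MAL12* and *HXT4* have close paralogs that could share probes. *GAL1* and *FBP1* did not pass, with 0.00 and 0.01 in rapamycin and -0.09 and -0.05 in DMSO. Both were dim, with group means of 9.10 to 9.44 for *GAL1* and 8.51 to 8.60 for *FBP1*. A fold change can be understated at such levels. After rapamycin *HXK1* had an estimate of 0.47 in *tup1Δ* (adjusted p = 0.0554) and rose by 1.69 in WT (adjusted p = 6.46e-07), an interaction of -1.22 (adjusted p = 0.00983). Of the 10 targets, 2 had an interaction in the other direction, *ADR1* with 0.86 (adjusted p = 0.0272) and *HXT2* with 0.68 (adjusted p = 0.029), beside 3.48% of all genes higher and 2.29% lower.

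All 5 targets of the Nrg proteins or Phd1 were higher in *tup1Δ* in both treatments (16.2% of all genes in rapamycin and 15.3% in DMSO), with a median of 0.78 in rapamycin and 0.97 in DMSO. *GAC1*, for a subunit of the phosphatase Glc7, had 2.94 in rapamycin and 1.87 in DMSO, and *FLO11*, for a cell surface flocculin, had 0.69 and 1.13. Of 6 targets of Sko1, 3 were higher in rapamycin (16.2% of all genes) and 4 in DMSO (15.3%), with a median of 0.29 in each. *GRE2*, for a stress-induced reductase, was the only one past 2-fold, with 1.69 in rapamycin and 1.59 in DMSO.

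The 5 targets of Rfx1, with *RFX1* itself among them, were all higher in *tup1Δ* in both treatments, beside the same shares of all genes, with medians of 1.00 in rapamycin and 0.94 in DMSO. *HUG1*, which acts on ribonucleotide reductase, had 2.48 and 2.55, and *RNR3*, for a large subunit of that enzyme, 1.79 and 2.42. The 4 targets of Sut1 were also all higher in both, beside these shares, with medians of 1.11 and 1.05. *DAN1*, for a cell wall mannoprotein of cells without oxygen, had 4.18 in rapamycin and 3.76 in DMSO, and *PDR11*, for a sterol transporter, 1.15 in each. The target lists share *ENA1* and *HXT2*, and they were drawn up with earlier results of these data known, so their counts are descriptions only.

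Across the 12 arrays, the genes whose log2 values ran most like those of *NRG1* were YPL277C (Pearson r = 0.996), *HBN1* (0.995) and *JEN1*, for a lactate transporter (0.995). For *CYC8* they were *ATP1*, for a subunit of the mitochondrial ATP synthase (r = 0.778), *ARE2*, for a sterol acyltransferase (0.751), and *MSS11*, for a factor of invasive growth (0.751). The arrays share cultures and fall into 4 groups, so they are not independent points and no test was made of these coefficients. The groups were fully separate for *NRG1* and overlapped for *CYC8*.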

How the data were processed

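By the paper's methods, total RNA was turned into double-stranded cDNA, which was labeled with Cy3 and hybridized to NimbleGen arrays. The authors used NimbleScan (version not given in the sources used here) for quantification and for RMA across these and further arrays of the same lab. The deposited values are on the log2 scale, 1 for each gene on each array. Probe signals, detection flags and the further arrays were not used here. Of the entries, 103 were empty on every array and 0 on only some. A table of the R64 assembly named 5763 of the 5769 genes by ORF, and 6 kept the ORF name. Array medians lay between 11.48 and 11.52 and values between 7.85 and 15.52. Precision is limited by the number of arrays.

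All 12 arrays entered a single limma 3.58.1 fit in R 4.3.3, on the values as deposited, using lmFit and eBayes with 1 mean per group. The residual degrees of freedom were 8 and the prior degrees 2.8. Benjamini-Hochberg adjustment was made over all genes. A gene passed at an adjusted p under 0.05, and the 2-fold count also required a log2 difference of 1 or more in size. The script was tested on simulated data. The members and lists were chosen with earlier results of these data known. Named genes were the members, *TUP1*, up to 3 genes of each list with the largest absolute change past 2-fold between the strains in DMSO, and the 3 genes most correlated with *CYC8* and with *NRG1*. *HOS1*, *HHT1*, *ISW2*, *SUT2*, *SOK2*, *MIG3*, *GAL1* and *FBP1* were named after their values were seen, and *ADR1*, *HXT2* and the interactions of *HXK1*, *SUT2* and *YAP6* were added in the same way. Of 17 genes for corepressor contacts, 16 had a value. Promoter motifs were not counted here, and 1 gene of the lists is not reported here by name.

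By the design text the 4 WT cultures were each divided, and WT arrays with the same replicate number were taken to share a culture. Arrays with different numbers were not compared to check this. The deviations of same-numbered WT arrays from the group means correlated at 0.745, 0.119, 0.531 and 0.535 for replicates 1 to 4. In *tup1Δ* this was 0.0637, and whether its numbers mark divided cultures was not settled by the labels, so pairs in *tup1Δ* enter only the replicate block alternative and the plot by replicate number. The p-values measure the spread between these arrays, and those with 1 WT pair alone leave out the spread between the pairs. The alternatives were quantile normalization again, centering on array medians, a shift to the median gene, leaving out the dimmest 25% of genes, only the groups compared, an intensity trend with a robust prior, a replicate block (fixed for rapamycin comparisons, random for strain comparisons with a consensus correlation of 0.378), 1 WT pair alone or pairs averaged, other fold thresholds, and leaving out each array.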

Additional observations from a re-analysis of the deposited data

Results flagged for a closer look

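Among the 4 WT rapamycin arrays, replicate 2 was high for *MIG1*, at 11.25 beside 10.94 to 10.99 on the others, and its gap to the next array was 0.835 of the whole range. This was the only such array in 20 groups of 4 WT arrays, where chance would give about 1 if arrays and groups were independent. They are not, since the WT arrays fall into pairs and all members share them, so that figure is only a rough guide. Without WT rapamycin replicate 2 the strain difference of *MIG1* in rapamycin was 1.24.

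The rapamycin response differed between *tup1Δ* and WT for 2 genes. The difference was 0.817 for *MIG1* and 1.084 for *SUT1* on the log2 scale, both past the limma test of the interaction. For *MIG1* both *tup1Δ* arrays in rapamycin were above both in DMSO, and every WT culture was lower after rapamycin.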

How the results depend on the processing

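Over 1060 values of single members under other settings, 967 kept direction and side of the threshold, 45 lost it, 30 gained it and 18 turned direction, 0 of the last where the gene had passed. Many of these settings cannot change an estimate, since they leave out an array of a group not compared or change only the spread. Direction was fixed in advance there, so the counts overstate how far the estimates were put to the test. The thresholds of 1 and 1.5 on the log2 scale left 3 and 1 of 9 members between the strains in DMSO, 5 and 3 of 9 in rapamycin, 1 and 0 of 5 for rapamycin in WT, 0 and 0 of 4 in *tup1Δ*, and 1 and 0 of 2 for the interaction. In the same order, all genes past 2-fold numbered 264, 311, 762, 684 and 67, those with no fold threshold 2457, 2519, 3819, 3062 and 333, and those past 1.5 numbered 148, 168, 395, 344 and 26. Without the dimmest 25% of genes, which takes out *NRG1* and *NRG2*, the 2-fold members were 1 and 3 between strains, 2 passed for rapamycin in *tup1Δ*, and all genes past 2-fold were 198 in rapamycin and 32 for the interaction. The replicate block raised the members passing for rapamycin in WT to 8, and WT replicates 3 and 4 alone raised the interaction to 6. The block also moved *SKO1* past the threshold in *tup1Δ* (adjusted p = 0.0254) and changed no other member's call. With 1 array left out, the members passing ranged from 6 to 9 between strains in DMSO (6 without either *tup1Δ* DMSO array, with *MIG1*, *MIG2* and *SKO1* lost), 7 to 9 in rapamycin, 5 to 7 for WT rapamycin, 2 to 5 for *tup1Δ* rapamycin (2 without either *tup1Δ* DMSO array or rapamycin replicate 2) and 2 to 3 for the interaction. Direction turned only near 0. *CYC8* between strains in rapamycin ran from -0.0192 to 0.0612 with 1 array left out and was -0.0388 against WT replicates 1 and 2. It was -0.006 for rapamycin in WT replicates 3 and 4, -0.0183 in *tup1Δ* after the shift to the median gene and -0.0461 to 0.0702 with 1 array left out, and 0.0181 for the interaction with WT replicates 3 and 4. *CIN5* in *tup1Δ* ran from -0.00445 to 0.179. For the interaction, *SKO1* was -0.00813 after quantile normalization, -0.136 with WT replicates 1 and 2, and -0.0513 to 0.0778 with 1 array left out, *MIG2* was -0.0076 with WT replicates 1 and 2, and *RFX1* was 0.0825 with replicates 3 and 4. The cause of these changes was not tested. Between strains in DMSO with the paired arrays as a random block, *SKO1* kept an adjusted p of 0.0463. With 2 *tup1Δ* arrays per treatment, small changes rest on 1 array, and without detection flags the dim members have no background level.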
